A study of Rattus norvegicus with 12 samples.

Results

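Acot1, Acot2 and Nudt7 encode enzymes that free or break down coenzyme A, and were followed in remote left ventricular myocardium of diabetic and non-diabetic rats after coronary ligation. The rule took every probe set whose single platform gene symbol was 1 of these 3 names. It found 5 probe sets, with 1 for Acot1, 3 for Acot2 and 1 for Nudt7, among 20826 probe sets that carried a single symbol for 14217 genes. All 5 passed the filter on dim probe sets, which kept 10623 genes. The 3 genes had been selected on the difference between diabetic and non-diabetic arrays, so that difference is given below as a description without a test.

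Acyl-CoA thioesterases split an acyl-CoA into a free fatty acid and coenzyme A. Acot1 encodes the cytosolic enzyme of its group and Acot2 the closely related mitochondrial one, and both act mainly on long-chain acyl-CoA. Nudt7 encodes a peroxisomal nudix hydrolase that cuts coenzyme A and its esters in the diphosphate bridge, which lowers the peroxisomal pool of the cofactor. The heart burns mostly fatty acids, and it does so even more when insulin is lacking. Acot1 and Acot2 are known targets of PPAR-alpha, the nuclear receptor that senses fatty acids.

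Male Sprague-Dawley rats had received streptozotocin at 65 mg/kg, which destroys the insulin-producing beta cells, or citrate buffer alone (non-diabetic) at the age of 8 weeks. After 10 further weeks they underwent a sham operation or permanent ligation of the left anterior descending coronary artery without reperfusion. Left ventricular free wall away from the infarct was taken after the sham operation (rats aged 18 weeks) or 1 day (18 weeks), 7 days (19 weeks), 14 days (20 weeks), 28 days (22 weeks) or 56 days after ligation, where the diabetic array is labelled 26 weeks and the non-diabetic array 22 weeks although both carry the same day. Each of the 12 Affymetrix arrays held RNA pooled from 3 rats, and each combination of 2 conditions and 6 time points had 1 array. There was thus no second array of any condition, and the spread between rats was not measured. Streptozotocin removes insulin, so the animals model insulin-deficient diabetes. The tissue label of the sham arrays speaks of an infarct, but their protocol describes a sham operation and was followed. When the sham-operated rats were killed is not stated in these sources.

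The sequences around the starts of the 3 genes are shown because the genes moved together across the arrays. They are the RefSeq windows of build GRCr8, each of 300 bases over the transcription start, 5′ to 3′. Capitals mark CCAAT boxes (CCAAT or its complement ATTGG) and GC boxes (GGGCGG or its complement CCGCCC).
Acot1 (chr6:109367024-109367323, + strand): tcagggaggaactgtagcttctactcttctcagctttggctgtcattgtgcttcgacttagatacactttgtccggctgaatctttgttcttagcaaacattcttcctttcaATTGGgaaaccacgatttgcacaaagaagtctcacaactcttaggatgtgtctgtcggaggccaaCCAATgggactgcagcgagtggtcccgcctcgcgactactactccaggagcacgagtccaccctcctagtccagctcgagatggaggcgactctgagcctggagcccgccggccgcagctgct
Acot2 (chr6:109342590-109342889, + strand): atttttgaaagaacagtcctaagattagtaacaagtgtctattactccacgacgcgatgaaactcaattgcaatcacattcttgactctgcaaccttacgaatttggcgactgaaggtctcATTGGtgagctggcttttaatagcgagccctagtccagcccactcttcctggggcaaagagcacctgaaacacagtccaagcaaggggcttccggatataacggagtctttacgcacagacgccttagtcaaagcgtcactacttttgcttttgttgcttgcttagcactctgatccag
Nudt7 (chr19:59034638-59034937, + strand): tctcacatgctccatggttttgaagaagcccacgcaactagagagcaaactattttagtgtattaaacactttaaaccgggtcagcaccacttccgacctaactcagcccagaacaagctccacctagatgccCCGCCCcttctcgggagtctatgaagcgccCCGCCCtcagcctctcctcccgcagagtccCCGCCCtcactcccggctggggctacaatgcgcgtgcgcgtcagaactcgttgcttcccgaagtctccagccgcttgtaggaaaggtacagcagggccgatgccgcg

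A CCAAT box occurred 2 times in the Acot1 window, 1 time in the Acot2 window and 0 times in the Nudt7 window, against 37.5% of all 33465 rat promoter windows with at least 1 on either strand. A GC box occurred 3 times in the Nudt7 window and 0 times in those of Acot1 and Acot2, and 33.1% of all windows held one. The element bound by PPAR-alpha with its partner RXR is a direct repeat of AGGTCA with 1 base between the copies. The best match to that repeat had 4 mismatches over 12 positions in each of the 3 windows, and 80.3% of all windows had as few. The single copy AGGTCA was in 0 of the 3 windows on either strand and in 16.2% of all windows. These counts describe only the letters of these windows. In the GRCr8 gene order on chromosome 6, Acot2 lies next to Acot1, followed by Rpl23al8, Acot4 and Acot3. Nudt7 lies on chromosome 19 between Skp1-ps2 and Vat1l.

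The median intensity over all probe sets lay between 28.8 and 34.7 on the 12 arrays. The log2 ratio of the 3′ to the 5′ beta-actin control probe sets, a sign of RNA integrity or labelling length, was 0.98 to 1.00 on the 4 arrays of days 1 and 7 and 0.37 to 0.59 on the 8 others. Days 1 and 7 and this ratio cannot be told apart for any difference between those days and the rest. Both conditions had nearly the same ratio on these days. Of the cardiomyocyte markers, 9 of the 9 that the array measured passed the filter. Their summed intensity was 46633 to 51304 on non-diabetic and 39389 to 52631 on diabetic arrays. The lowest sum was that of diabetic day 1, beside 49479 on non-diabetic day 1. With diabetes Myh6 differed by -0.73 and was lower in 6 of 6 pairs, with -1.65 on day 1. Myh7 differed by 0.26 and was higher in 6 of 6 pairs.

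Acot1 was dim in non-diabetic and clearly brighter in diabetic myocardium. Its intensity on non-diabetic arrays was 5.12 in sham, 34.4 on day 1, 5.27 on day 7, 2.63 on day 14, 6.32 on day 28 and 3.90 on day 56. On diabetic arrays it was 138 in sham, 171 on day 1, 76.2 on day 7, 84.8 on day 14, 134 on day 28 and 109 on day 56. The groups did not overlap, and day 1 was the highest array of each condition. In the 5 non-diabetic arrays other than day 1 between 5.84% and 14.9% of all probe sets were dimmer than Acot1, against 51.8% on non-diabetic day 1 and 67.1% to 83.0% on diabetic arrays. On the scale log2(intensity + 16) the diabetic minus non-diabetic difference was 2.87 in sham, 1.89 on day 1, 2.11 on day 7, 2.44 on day 14, 2.74 on day 28 and 2.66 on day 56, with a mean of 2.45 ± 0.38 (SD, n = 6 pairs). The offset of 16 damps the differences of dim probe sets, and the mean was 3.94 with an offset of 1 and 1.30 with an offset of 64. Acot1 passed the filter through its diabetic arrays, since its non-diabetic mean of 4.58 lay below the filter level of 5.20. When its 12 arrays were ordered, 2 of the 11 steps between neighbours were larger than 0.36, the SD of a difference of 2 arrays under the model. These were the step of 1.18 from non-diabetic day 28 up to non-diabetic day 1 and the step of 0.87 from there to diabetic day 7. Neighbours within the diabetic arrays, and within the other 5 non-diabetic arrays, did not differ beyond that spread. From lowest to highest the diabetic arrays still spanned 1.02, and steps between sorted neighbours do not test whether arrays differ.

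**Figure D1:**
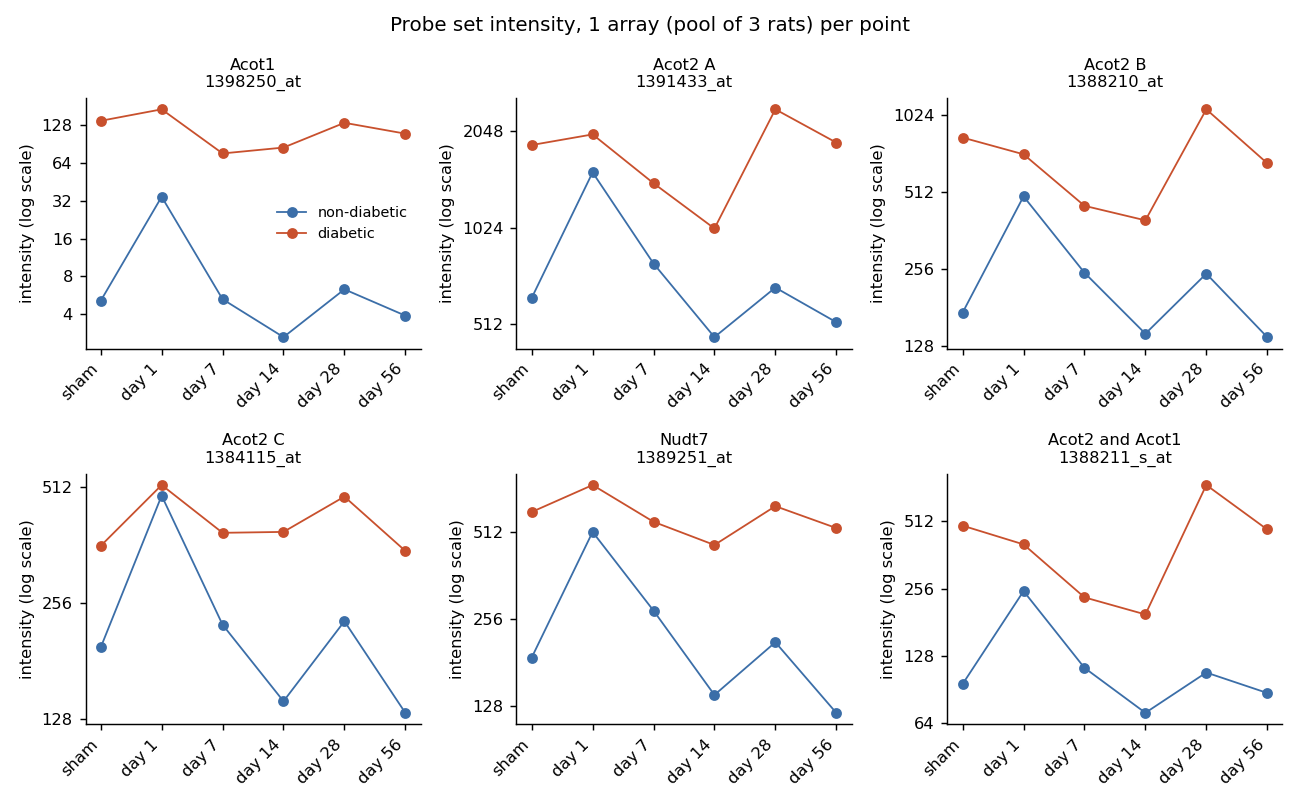
Intensity (log axis) of the 5 probe sets of Acot1, Acot2 and Nudt7 and of 1 probe set listed under both Acot2 and Acot1, by time point (equally spaced categories), with 1 pooled array per point, so no error bars can be drawn. The non-diabetic day 1 array is the highest non-diabetic array in each panel, and the diabetic point lies above the non-diabetic one at all 6 time points.

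Acot2, the mitochondrial long-chain thioesterase, was also brighter in every diabetic array than in its non-diabetic partner. Its 3 probe sets are called A, B and C in order of their mean, and A represents the gene. Probe set A had non-diabetic intensities of 619 in sham, 1523 on day 1, 792 on day 7, 467 on day 14, 667 on day 28 and 520 on day 56. Its diabetic intensities were 1852 in sham, 1999 on day 1, 1409 on day 7, 1018 on day 14, 2393 on day 28 and 1885 on day 56. The groups overlapped through the non-diabetic day 1 array, which was brighter than the diabetic arrays of days 7 and 14. The log2 difference was 1.56 in sham, 0.39 on day 1, 0.82 on day 7, 1.10 on day 14, 1.82 on day 28 and 1.83 on day 56, and its mean was 1.25 ± 0.58 (SD, n = 6 pairs). As plain intensity ratios these were 2.99-fold in sham, 1.31-fold on day 1 and 3.62-fold on day 56. In the order of the 12 arrays, 0 of 11 steps exceeded 0.48, the SD of a difference of 2 arrays, so no neighbours differed beyond that spread. From lowest to highest, however, the non-diabetic arrays spanned 1.67 and the diabetic arrays 1.22.

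The other 2 Acot2 probe sets ran the same way with other sizes. Probe set B went from 172 to 834 between non-diabetic and diabetic sham, from 491 to 717 on day 1, from 247 to 451 on day 7, from 142 to 396 on day 14, from 245 to 1076 on day 28 and from 138 to 662 on day 56. Probe set C went from 196 to 360 in sham, from 485 to 517 on day 1, from 224 to 389 on day 7, from 142 to 391 on day 14, from 229 to 483 on day 28 and from 133 to 349 on day 56. Their mean differences were 1.52 ± 0.72 and 0.89 ± 0.46 (SD, n = 6 pairs). The 3 Acot2 probe sets therefore disagreed on the mean size, from 0.89 to 1.52, and on the smallest difference, which was 0.089 on day 1 for C. The diabetic day 28 array was the highest of all 12 for A and B but not for C, whose highest array was diabetic day 1. A further probe set carries the symbols of both Acot2 and Acot1 and was assigned to neither. It lay between 71.1 and 249.6 on non-diabetic and between 196 and 746 on diabetic arrays, with a mean difference of 1.66. How far probe sets of these related, neighbouring genes detect each other's transcripts was not tested.

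Nudt7, the peroxisomal coenzyme A hydrolase, had non-diabetic intensities of 189 in sham, 514 on day 1, 274 on day 7, 140 on day 14, 213 on day 28 and 121 on day 56. Its diabetic intensities were 603 in sham, 747 on day 1, 557 on day 7, 463 on day 14, 631 on day 28 and 530 on day 56. Non-diabetic day 1 was brighter than diabetic day 14, and no other non-diabetic array reached a diabetic one. The log2 difference was 1.60 in sham, 0.53 on day 1, 0.98 on day 7, 1.62 on day 14, 1.498 on day 28 and 1.99 on day 56, with a mean of 1.37 ± 0.52 (SD, n = 6 pairs). The ratio of intensities was 3.19-fold in sham and 4.37-fold on day 56. In the order of its arrays 1 of 11 steps exceeded 0.47, the SD of a difference of 2 arrays. That step of 0.72 lay between non-diabetic day 7 and diabetic day 14. The spread over time was wider on non-diabetic arrays, with a range of 1.95 on the log2 scale, than on diabetic arrays, where it was 0.67.

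Because the rule used the diabetes contrast, the counts that follow only describe the selected genes. Of all 18625 probe sets tested, 0.376% passed an adjusted p of 0.05 for diabetes in limma, 2.42% were higher on the diabetic array in all 6 pairs, and 0.123% had every diabetic array above every non-diabetic array. All 5 probe sets of the 3 genes were higher in 6 of 6 pairs, and the single Acot1 probe set was free of overlap.

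The course over time within each condition was not the criterion of the selection. The spread used in the tests of that course does come from the differences that were the criterion. Acot1 also passed the filter through its diabetic arrays, so these tests are not independent of the selection. In non-diabetic rats all 5 probe sets were highest on day 1, while 20.5% of all probe sets had their highest non-diabetic array on that day. On day 1 they stood 1.24 to 1.43 above non-diabetic sham on the log2 scale. In diabetic rats 3 of the 5 were highest on day 1, against 21.3% of all probe sets, and the change from diabetic sham lay between -0.21 and 0.51. The diabetic minus non-diabetic difference at single time points comes from the contrast that chose the genes and is given as a description. It was smallest on day 1 for all 5 with an offset of 16 or 1, and 26% of all probe sets had their smallest difference on day 1 at an offset of 16. Over all probe sets the day 1 difference against the other times had a median of -0.13, with 36.9% above 0. Among other PPAR-alpha targets, Pdk4, Decr1, Ucp3 and Cpt1a also had their smallest difference on day 1, while Angptl4 did not. The low point on day 1 was thus not particular to these 3 genes. With an offset of 64 the Acot1 difference was smallest on day 7, at 1.02, beside 1.25 on day 1. At an offset of 16 its median over the 5 probe sets was 1.60 in sham, 0.53 on day 1, 0.83 on day 7, 1.38 on day 14, 1.82 on day 28 and 1.99 on day 56. Since 3 of the 5 belong to Acot2, these are not independent counts.

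**Figure D2:**
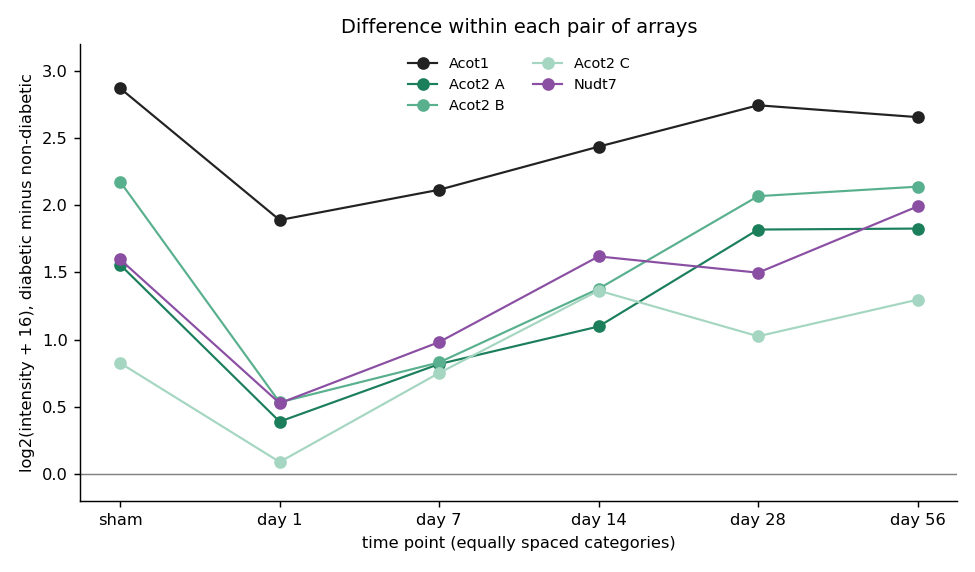
Difference in log2(intensity + 16) between the diabetic and the non-diabetic array at each time point (equally spaced categories), with 1 line per probe set and 1 pair of pooled arrays per point. All 5 lines have their lowest point on day 1, at 0.089 to 1.89, although with an offset of 64 that of Acot1 would be on day 7, and they lie between 1.30 and 2.66 on day 56.

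The change with ligation was tested with limma over both conditions together, with the time point and diabetes in 1 model. On day 1 the 5 probe sets were 0.61 to 0.87 above sham, when the median of all probe sets was 0.070. For Acot1 the change was 0.77 ± 0.25 (SE; 95% interval 0.21 to 1.32) with an adjusted p of 0.0868 in limma, and it was 1.42 with an offset of 1 and 0.36 with an offset of 64. For Acot2 it was 0.69 ± 0.34 on probe set A (adjusted p = 0.223), with limma's adjusted p of 0.374 and 0.109 on the other 2 probe sets. For Nudt7 it was 0.84 ± 0.33 (95% interval 0.11 to 1.57; adjusted p = 0.142 in limma). Thus 0 of 5 passed on day 1, where 7.47% of all probe sets did, although 3 of 5 had an unadjusted p below 0.05.

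At later times no probe set of the 3 genes passed the test. On day 7 the change lay between -0.37 and 0.20 with limma's adjusted p from 0.392 to 0.978, when the median over all probe sets was 0.15 and 7.65% were called. On day 14 it was -0.65 to -0.15, on day 28 0.016 to 0.42 and on day 56 -0.38 to -0.11, and limma's adjusted p was at least 0.472 on each. On those 3 days 0% of all probe sets were called in limma, with 2172, 675 and 3062 of 18625 at an unadjusted p below 0.05. For the mean of the 5 days against sham the estimate was -0.036 ± 0.20 for Acot1, 0.035 ± 0.26 for Acot2 (A) and 0.079 ± 0.26 for Nudt7. The 95% interval for Nudt7 ran from -0.49 to 0.64, limma's adjusted p was 0.834 to 0.989 over the 5 probe sets, and 0.107% of all probe sets were called.

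Across the 5 days after ligation the level fell with the log2 of the day for Acot1, Nudt7 and 1 of the 3 Acot2 probe sets. The slope per doubling of the day was -0.15 ± 0.040 for Acot1 (adjusted p = 0.0186 in limma), -0.20 ± 0.053 for Nudt7 (adjusted p = 0.0194 in limma) and -0.17 ± 0.050 for Acot2 probe set C (adjusted p = 0.026 in limma). For Acot2 probe set A it was -0.13 ± 0.054 and limma's adjusted p was 0.0939, and for B it was -0.12 ± 0.064 with 0.184. This count of 3 of 5 stands beside 28.5% of all probe sets called, 1879 higher and 3430 lower, a split that was 2556 and 2447 after quantile normalization. After that normalization the slope of C was -0.12 and did not pass (adjusted p = 0.058 in limma), while Acot1 and Nudt7 did (adjusted p = 0.0419 and 0.034 in limma). The Acot1 slope was -0.28 with an offset of 1 and -0.074 with an offset of 64, and passed in both. Acot1 passed the filter only through its diabetic arrays, so its slope call is a description. Its non-diabetic intensities other than day 1 were only 2.63 to 6.32. The calls rested on the day 1 pair. Without it the slope was 0.094 for Acot1 (adjusted p = 0.348 in limma), -0.12 for Nudt7 (adjusted p = 0.33 in limma) and -0.080 for C (adjusted p = 0.496 in limma). Without the day 56 pair limma's adjusted p was 0.071 for Nudt7 and 0.121 for C, and without the day 28 pair it was 0.0285 for A and 0.0498 for B.

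Whether the diabetic difference itself changed with time was fitted as an interaction, and 0 of 5 probe sets passed in any of 4 forms. For the members these interactions are built from the same pair differences that chose the genes. Their SE and p-values below are therefore descriptions. With sham against the 5 days together, the interaction was -0.50 ± 0.40 for Acot1, -0.37 ± 0.55 for Acot2 (A) and -0.27 ± 0.56 for Nudt7, with an adjusted p of 1 in limma. With the log2 of the day over the 10 ligated arrays, the difference grew by 0.15 ± 0.069 per doubling of the day for Acot1, by 0.27 ± 0.079 for Acot2 (A) and by 0.25 ± 0.089 for Nudt7. The unadjusted p was 0.054, 0.00707 and 0.0207 in limma, and the adjusted p was 1 for all. On days 1 and 7 the difference was lower than at the other 4 time points by estimates of -0.67 ± 0.25 for Acot1, -0.97 ± 0.31 for Acot2 (A) and -0.92 ± 0.32 for Nudt7 (unadjusted p = 0.0211, 0.0106 and 0.0158; adjusted p = 0.999 in limma). Day 1 alone against the other 5 time points, a contrast chosen after the values were seen, gave -0.67 ± 0.35 for Acot1, -1.03 ± 0.43 for Acot2 (A) and -1.01 ± 0.43 for Nudt7, with limma's adjusted p from 0.836 to 0.907 over the 5 probe sets. The Acot1 values depend on the offset. Its day 1 interaction was -1.999 with an offset of 1 and -0.059 with an offset of 64, the interaction with days 1 and 7 was -1.49 and -0.25, and that with log2 of the day was 0.39 and 0.034. In each of these 4 interactions 0% of all 18625 probe sets were called in limma, with 125, 838, 753 and 1085 at an unadjusted p below 0.05. The 95% interval for day 1 ran from -1.97 to -0.050 for Nudt7 and from -1.45 to 0.10 for Acot1. Since day 1 was chosen after the values were seen, these intervals do not keep their nominal coverage and are descriptions.

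The remaining acyl-CoA thioesterases had estimates near 0 for diabetes, which were not tested against those of Acot1 and Acot2. Of 15 listed thioesterase genes 12 had a probe set with a single symbol and 9 passed the filter. Among the 7 besides Acot1 and Acot2, 0 were called in limma, their median difference was 0.078 and their range was -0.35 to 0.23. Acot3, which lies in the same gene cluster, differed by 0.21 ± 0.23 (SE), and Acot8, the peroxisomal thioesterase, by -0.35 ± 0.19. Acot7, a cytosolic enzyme best known from brain, differed by 0.23 ± 0.17, and Acot13, a small mitochondria-associated thioesterase, by -0.18 ± 0.17. Acot4, Acot12 and Baat were below the filter. On day 1 against sham, Acot9, a mitochondrial thioesterase, rose by 1.01 (adjusted p = 0.0382 in limma), the 1 called gene of these 7.

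The other nudix hydrolases that act on coenzyme A had estimates below 0 for diabetes, and 0 of 2 passed the test. Nudt8, the mitochondrial enzyme, was at -0.66 ± 0.17 with diabetes (adjusted p = 0.198 in limma, higher in 1 of 6 pairs), and Nudt19, a second peroxisomal enzyme, at -0.19 ± 0.15 (adjusted p = 0.689 in limma). On day 1 Nudt8 rose by 1.98 over sham (adjusted p = 0.00371 in limma), while Nudt19 was at 0.11. Of 16 measured nudix hydrolases with other substrates 0 were called for diabetes and the median was -0.12. Among them Nudt4, which acts on diphosphoinositol phosphates, was at 0.75 (adjusted p = 0.178 in limma) and higher in 6 of 6 pairs, and Nudt18 was at -0.61 (adjusted p = 0.175 in limma) and higher in 0 of 6.

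**Figure D3:**
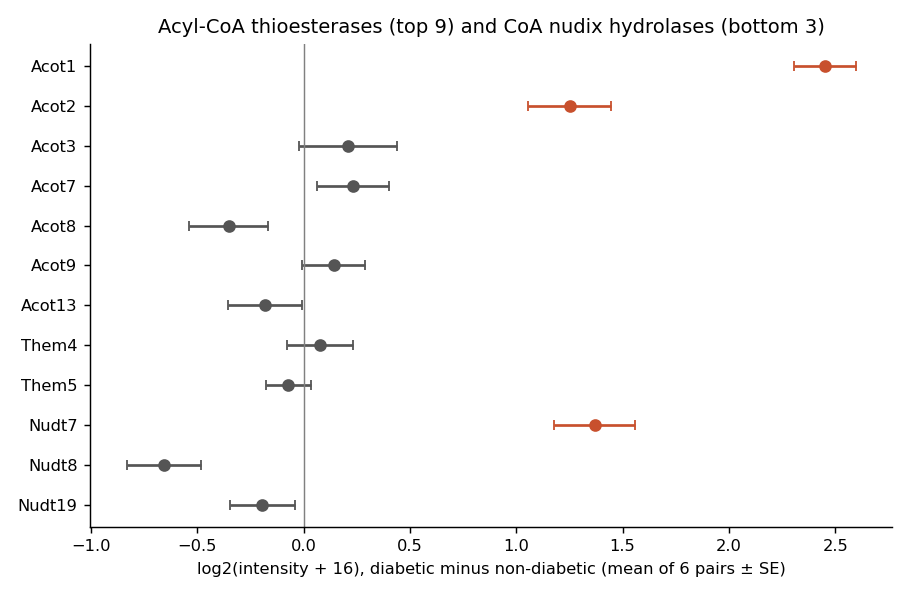
Mean difference in log2(intensity + 16) between diabetic and non-diabetic arrays (6 pairs; bars show the model's SE) for the 9 acyl-CoA thioesterases and the 3 coenzyme A nudix hydrolases that passed the filter. Acot1 at 2.45, Acot2 at 1.25 and Nudt7 at 1.37, which were selected on this difference, are in orange, and the other 9 genes lie between -0.66 and 0.23.

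Genes that make, move or use coenzyme A were described in the same way. Of 14 measured genes of coenzyme A synthesis and transport 0 were called for diabetes, with a median of 0.067. The largest value was that of Slc25a42, the mitochondrial coenzyme A carrier, at 0.70 ± 0.24, followed by Ppcs, an enzyme of coenzyme A synthesis, at 0.65 ± 0.19 and Pank1, a pantothenate kinase, at 0.38 ± 0.19. Of 13 acyl-CoA synthetases and binding proteins, which make or hold the substrate of the thioesterases, 0 were called and the median was 0.049. Acsl6, a long-chain synthetase, stood lowest at -0.98 ± 0.19 (adjusted p = 0.072 in limma) and was lower in 6 of 6 pairs, and Slc27a1, a fatty acid transport protein, stood highest at 0.77 ± 0.21. Of 20 peroxisomal enzymes and proteins of acyl-CoA metabolism 0 were called and the median was 0.14, with Pex11a, a protein of peroxisome division, at 0.72 ± 0.17 and Ech1, an enoyl-CoA isomerase, at 0.63 ± 0.14. On day 1 Enpp3, a nucleotide-cleaving ectoenzyme, and Acsl4, a long-chain acyl-CoA synthetase, rose by 1.17 and 1.32 over sham (adjusted p = 0.0479 and 0.0271 in limma).

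Among 33 measured PPAR-alpha target genes other than the members, 3 rose and 0 fell with diabetes, and 27 had a value above 0. Their median was 0.37, beside -0.010 over all 10623 genes, of which 15 rose and 35 fell. Of those 10623, which include Acot1, Acot2 and Nudt7, 5106 had a value above 0. Decr1, which encodes the mitochondrial 2,4-dienoyl-CoA reductase of unsaturated fatty acid oxidation, rose by 1.43 ± 0.19 (adjusted p = 0.00892 in limma). Pdk4, which blocks glucose oxidation at pyruvate dehydrogenase, rose by 2.46 ± 0.36 (adjusted p = 0.0171 in limma), and Angptl4, an inhibitor of lipoprotein lipase, by 2.73 ± 0.49 (adjusted p = 0.0423 in limma). Each of the 3 was higher in 6 of 6 pairs. Ucp3 at 1.14 and Cpt1a, the entry step of fatty acids into mitochondria, at 0.99 were also higher in 6 of 6 pairs but did not pass (adjusted p = 0.0692 and 0.0779 in limma). The count of 3 was 1 without the sham pair and 0 without the day 14 pair or without the day 56 pair. Between conditions Pdk4 differed by 0.56 on day 1 and by 1.16 to 3.43 at the remaining 5 times, while Angptl4 differed by 2.34 on day 1 and by 0.11 to 4.89 at those times. On day 1 Angptl4 and Plin2, a lipid droplet coat protein, rose by 3.15 and 1.62 over sham (adjusted p = 0.0463 and 0.00878 in limma), and no other gene of these 33 was called. Over all 10623 genes 6% were called on day 1, 392 higher and 245 lower. Of 18 measured genes in the list of PPARs, partners and coregulators 0 were called for diabetes in limma, with a median of 0.070. The list also held Lipe (0.67), Pnpla2 (0.67) and Abhd5 (0.041), lipolysis genes that its name does not cover. Ppara, Rxra and Ncoa2 were below the filter.

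**Figure D4:**
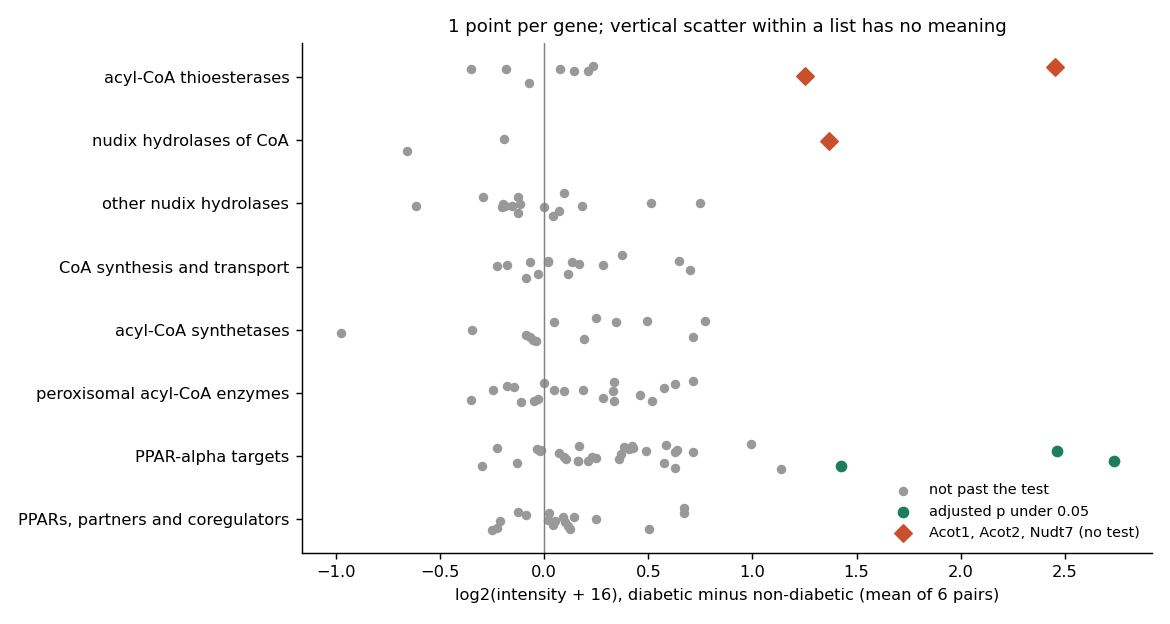
Mean difference in log2(intensity + 16) between diabetic and non-diabetic arrays (6 pairs) for each measured gene of 8 lists, 1 point per gene, with vertical scatter only to separate the points. Green points passed limma's adjusted p of 0.05 (Decr1, Pdk4 and Angptl4), and orange diamonds are Acot1, Acot2 and Nudt7, for which no test is given.

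Across the 12 arrays the 3 genes were correlated with each other, with r of 0.928 between Acot1 and Acot2, 0.932 between Acot1 and Nudt7 and 0.961 between Acot2 and Nudt7. After each condition's mean was taken off, r was 0.884, 0.837 and 0.89. By this measure Acot2 ranked 1 and Nudt7 ranked 4 among the genes most like Acot1. For Acot2, Nudt7 ranked 2 and Acot1 ranked 5. For Nudt7, Acot2 ranked 12 and Acot1 ranked 87, so many other genes followed its course over time more closely. The arrays share the time points and the selection of the genes on diabetes, so these values are descriptions. Over all 12 arrays Acot2 and Nudt7 were each other's closest gene among 10623 genes. The genes named next leave the members out. The closest course to Acot1 was then that of Gpihbp1, the endothelial anchor of lipoprotein lipase (r = 0.949), followed by Cyp1a1 (0.947), Pdk4 (0.925), Decr1 (0.896) and Pik3c2g (0.892). For Acot2 these were Pdk4 (0.958), Gpihbp1 (0.925), Decr1 (0.917), Rbp7 (0.899) and Usp36 (0.899), and for Nudt7 Pik3c2g (0.919), Pdk4 (0.917), Vopp1 (0.916), the glycerol channel Aqp7 (0.901) and Gpihbp1 (0.898). Pdk4 and Gpihbp1 were thus in all 3 lists of 5. On day 1 Gpihbp1 stood 1.89 above sham in non-diabetic rats and at -0.55 in diabetic rats, and the conditions differed by 0.76 on day 1 and by 1.04 to 3.197 at the remaining 5 times.

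With the condition means taken off, which leaves the course over time, other genes came closest among those that are not members. For Acot1 they were Fkbp5 (0.862), Gal (0.846), Gpihbp1 (0.829), Clic5 (0.829) and LOC100912629 (0.815). For Acot2 they were Hnrnpdl (0.897), Fam117b (0.889), Fkbp5 (0.885), Pdk4 (0.880) and Clcn3 (0.868), and for Nudt7 Jph1 (0.951), Nbn (0.928), Mgst1 (0.908), Ube2j2 (0.908) and Arhgap42 (0.905). Fkbp5, a co-chaperone of steroid receptors, was in 2 of these 3 lists, and differed by 0.49 ± 0.19 between conditions (adjusted p = 0.392 in limma). Gal, the neuropeptide galanin, was 2.75 above sham on day 1 (adjusted p = 0.000113 in limma).

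In bulk tissue a change in the number of cells of a type and a change in RNA per cell cannot be told apart. Markers of other tissues and cell types were looked at on the same arrays, and 0 genes of these lists were called for diabetes in limma. Of 6 hepatocyte markers Alb, Apoa1, Apoa2 and Fgb were below the filter, and the summed intensity of the list was 206 to 422 on non-diabetic and 223 to 459 on diabetic arrays. Of 6 measured adipocyte markers Adipoq, Plin1, Lep and Cidec were below the filter, with sums of 1946 to 4406 and 2754 to 5694. Of 3 brown adipocyte markers Ucp1 and Elovl3 were below the filter. The mean log2 value of 5 endothelial markers was lower on the diabetic array in 6 of 6 pairs, with differences of -0.48 to -0.16 (0 of 5 genes called). Their sum was 1962 to 3079 on non-diabetic and 1791 to 2499 on diabetic arrays. The markers did not move as a set. Tie1 at -0.82 and Pecam1 at -0.46 were lower in 6 of 6 pairs, while Tek was at -0.21, Kdr at -0.013 and Vwf at 0.082. Of 5 atrial markers 4 passed the filter (Sln did not), and their differences with diabetes were 0.64 to 0.75. Dkk3 was at 0.75 and higher in 6 of 6 pairs, and Nppa, the atrial natriuretic peptide, at 0.66 in 5 of 6. Myl4 was at 0.65 in 5 of 6, and Myl7 at 0.64 ± 0.51 in 4 of 6, with pair differences from -1.53 to 2.67. Nppa was the brightest of these markers and weighs most in their sum. The atrial sum was 3036 to 8435 on non-diabetic and 6739 to 9064 on diabetic arrays, and on day 1 it was 4200 and 8843. All 4 measured mesothelial markers had values below 0, from -0.44 to -0.12, with sums of 205 to 376 and 132 to 291. The mean log2 value of the fibroblast, macrophage and skeletal muscle markers differed by -0.081, -0.18 and -0.057 over the 6 pairs, higher in 2, 2 and 3 of them. The part of any of these cell types in the differences of Acot1, Acot2 and Nudt7 was not tested.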

How the data were processed

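Each of the 12 arrays gave 1 deposited intensity per probe set on a linear scale, which the authors made with PLIER in Affymetrix Expression Console, according to the submitters' processing notes. Software versions and the scaling of arrays are not stated there. Groups came from the labels. Of 31042 probe sets without controls, 20826 had 1 gene symbol in the platform annotation, and 436 had several and named no gene. Values were used as log2(intensity + 16). The filter on dim probe sets (a mean above the 40th percentile, 5.20) passed 18625. A gene is represented by its kept probe set with the highest mean.

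limma 3.58.1 in R 4.3.3 fitted the time point (6 levels) and diabetes to the 12 arrays, with 5 residual degrees of freedom and a variance trend. Within each comparison, Benjamini-Hochberg adjustment covered all 18625 probe sets. Interactions of diabetes with ligation or early days used 12 arrays, and the one with log2 day used 10. The residual spread is the variation of the diabetic minus non-diabetic difference over time points, not between rats. The code was tested on simulated data. Alternatives changed the offset, scaling, filter, variance trend, time points and block, and left out each pair.

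The 3 genes, the lists and the tests were chosen with earlier results of these data known. Named genes are the members, related thioesterases and nudix hydrolases, and genes of most other lists with the largest values or past the threshold. In the list of PPARs, partners and coregulators only its lipolysis genes and those below the filter are named. The 5 genes other than members that were most correlated with each member over 12 arrays are also named. The number of arrays limits the precision.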

Additional observations from a re-analysis of the deposited data

How the results depend on the processing

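The diabetic minus non-diabetic differences of Acot1, Acot2 and Nudt7 kept their sign in every alternative run. The genes were selected on this difference and were higher in 6 of 6 pairs. Only the runs that rescaled the arrays could therefore have changed the sign, and the others could not. Acot1 was 3.94 with an offset of 1 and 1.30 with an offset of 64, as the offset sets the size for a dim probe set. On days 1 and 7 alone the differences were 2.00 for Acot1, 0.60 for Acot2 and 0.75 for Nudt7. Acot1 has no value with the filter at the 60th percentile, which removed it. The slopes on log2 of the day depended on the day 1 pair. With 1 pair left out at a time they ran from -0.20 to 0.094 for Acot1 (0.094 without day 1), from -0.16 to 0.060 for Acot2 and from -0.23 to -0.12 for Nudt7, and with sham and days 14 to 56 alone they were 0.10 for Acot1, 0.26 for Acot2 and 0.0014 for Nudt7. The cause was not tested. The count of PPAR-alpha targets higher with diabetes ran from 0 to 4 with 1 pair left out, and was 0 on days 1 and 7 alone and 0 without the time point block. Over 664 combinations of a tested member result and an alternative, 29 changed sign, of which 3 concerned a called value. Counts of called probe sets ran from 2 to 92 for diabetes, from 0 to 625 for the mean of 5 days, from 638 to 2701 for day 1, from 481 to 2846 for day 7, from 0 to 47 for day 14, from 0 to 762 for day 56 and from 0 to 7811 for the slope, and the 4 interactions had 0 to 4. The 2 arrays of a time point are paired through the time point block of the model, and the labels give no other replicate numbers.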
